A study of Mus musculus with 45 samples.

Results

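Macrophages of the meninges (mMΦ), the membranes that enclose the brain, were compared between mice of postnatal day 56 (P56, 8 weeks) and of postnatal day 21 (P21, 3 weeks). The members were the 3 mMΦ libraries labelled 8 weeks and the 3 labelled 3 weeks, 6 of the 45 libraries of the series. They were picked by label, with earlier results of these data known. Both groups came from untreated C57BL/6J mice of genotype Cx3cr1GFP/wt, in which GFP occupies 1 allele of the fractalkine receptor gene Cx3cr1, and each replicate was 1 mouse per the series' design. No mice with 2 intact Cx3cr1 alleles are among the samples used here, so every comparison is between mice that carry the GFP allele. The series also holds microglia (5 libraries at P56 and 5 at P21), perivascular macrophages (pvMΦ, 4 and 4) and mMΦ of E14.5, P3 and P10 (3 each). All mMΦ libraries were in sequencing batch S232. RNA of sorted cells was sequenced in bulk, so that fewer cells of a type and less RNA per cell cannot be told apart.

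Macrophages of the brain's borders survey the cerebrospinal fluid and the dura, clear debris through scavenger receptors and can present antigen. MHC class II molecules are dimers of an alpha and a beta chain that show peptides of engulfed material to CD4+ T cells. The invariant chain, encoded by Cd74, guides the dimers to endosomes, cathepsin S trims it, and H2-DM exchanges its remaining peptide for an antigen. Their genes are switched on together by the coactivator CIITA, which acts on a promoter module shared among them.

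In mMΦ of P56 mice the class II genes H2-Aa, H2-Ab1, H2-Eb1 and Cd74 stood at 15.2 to 21.8 times their level of P21 mice, and H2-DMa and H2-DMb1 at 4.67 to 4.68 times (fitted folds). Lyz2, which encodes the lysozyme of phagocytes, was 2.11 times as high, and the tetraspanin gene Cd81 2.56 times. The myelin genes Mbp and Mobp, Cd36 and the transcription factor genes Jdp2 and Cebpb were lower. None of these genes passed the quasi-likelihood test of edgeR on the 6 libraries, in which 0 of 11325 genes (0%) had a Benjamini-Hochberg adjusted p under 0.05. The lowest adjusted p was 0.0634, and 497 genes (4.39%) had an unadjusted p under 0.05, 212 of them higher (1.87%) and 285 lower (2.52%). The values are therefore given as levels in each library, in counts scaled to the total of a library (CPM).

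Other tests of the same counts gave other numbers. The Wald test of DESeq2 called 119 of the 11099 genes to which it gave an adjusted p (1.07%), 48 higher (0.432%) and 71 lower (0.64%), and limma with voom and quality weights called 6 of 11325 (0.053%), all higher, namely Lyz2, H2-Eb1, H2-Aa, Cd74, H2-DMb1 and H2-Ab1. The fit of edgeR over the 15 mMΦ libraries of all ages called 154 of 14154 genes (1.09%), 40 higher (0.283%) and 114 lower (0.805%). Over all 45 libraries it called 17 of 17064 (0.0996%), 7 higher (0.041%) and 10 lower (0.0586%). Over the 24 libraries of P56 and P21 it called 4 of 14871 (0.0269%), with H2-DMb1 and H2-DMa higher and Adgrg1 and Angptl7 lower, and 962 (6.47%) had an unadjusted p under 0.05. All 6 genes called by limma were also called by DESeq2 and by the fit over 15 libraries, and 10 genes were called by DESeq2 and both larger fits. The larger fits take their spread partly from libraries of other ages or populations.

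Library totals ran from 18703313 to 24979129 counts at P56 and from 19224738 to 26428491 at P21. Thinned to the smallest library, 14188 to 15320 genes had a count at P56 and 15353 to 17587 at P21. The common dispersion of edgeR was 1.09 within the P56 group and 0.87 within the P21 group, and no 2 libraries of 1 age agreed within counting error (chi-square of 121 to 204 times its degrees of freedom), so that each was counted as a separate sample. P56 replicate 1 stood apart on the first principal component and P21 replicate 2 on the second (38.3% and 27.2% of the variance). Values without single libraries stand beside the results that these libraries moved most. The genes by which mMΦ are known were present in every library, with Mrc1, the mannose receptor, at 2715 to 3087 CPM at P56 and 3267 to 4014 CPM at P21. Sall1, a transcription factor gene of microglia, was at 0 to 1.45 CPM at P56 and 0.20 to 3.69 CPM at P21. P2ry12, another gene of the microglia list, was measurable, at 320 to 369 CPM at P56 and 481 to 697 CPM at P21, lower without overlap.

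The shared promoter module contains a Y box, an inverted CCAAT element that binds the factor NF-Y. The letters TGATTGG, or CCAATCA on the other strand, were searched for in the 250 bases before each gene's start. They occurred for 7 of the 8 class II genes of the list that the RefSeq promoter table (GRCm38.p6) holds, for 5 of 8 matched genes among the 10 named below as higher, and for 1 of 8 among the 10 that the same rule picked as lower. A match was found for 2265 of all 27025 genes held there (8.38%), and in 7.23% of all 32851 windows. The 5 matches among the genes named as higher are no separate result, because these genes were picked from the same data. Of the 5, H2-Aa, H2-Eb1 and H2-DMb1 are also in the class II count, and H1f2 and H3f3b matched on the opposite strand only. H2-DMa had no match, and H2-Ab1, Cd74 and Ciita were not matched to the table. The 150 bases before the start of an alpha chain gene, a beta chain gene and a peptide exchange gene are shown 5′ to 3′ on the gene's strand, with the match in capitals, because these genes lead the comparison.
H2-Aa, chr17:34287824-34287973, minus strand: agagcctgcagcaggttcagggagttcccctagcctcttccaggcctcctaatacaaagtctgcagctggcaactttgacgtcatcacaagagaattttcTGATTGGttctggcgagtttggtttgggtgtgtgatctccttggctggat
H2-Eb1, chr17:34305717-34305866, plus strand: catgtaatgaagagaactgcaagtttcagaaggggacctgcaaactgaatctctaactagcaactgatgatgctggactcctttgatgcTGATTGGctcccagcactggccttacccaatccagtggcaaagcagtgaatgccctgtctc
H2-DMb1, chr17:34153041-34153190, plus strand: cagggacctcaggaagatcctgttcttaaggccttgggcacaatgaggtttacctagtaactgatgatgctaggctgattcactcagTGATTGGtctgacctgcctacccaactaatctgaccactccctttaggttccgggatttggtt
The match lay 50 to 44 bases before the start of H2-Aa, 61 to 55 before that of H2-Eb1 and 63 to 57 before that of H2-DMb1. It is a match of letters, the only ones searched, and no binding was measured.

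H2-Aa, the alpha chain of the I-A dimer, was at 3915, 2481 and 2400 CPM in the P56 libraries, against 234, 56.5 and 118 CPM in the P21 libraries. H2-Ab1, its beta chain, was at 5525, 3110 and 2874 CPM at P56, against 301, 67.4 and 207 CPM at P21. H2-Eb1, which encodes the I-E beta chain (C57BL/6 mice lack its alpha chain partner and form no I-E dimer), had 2808, 1636 and 1579 CPM at P56 and 164, 72.3 and 105 CPM at P21. The groups did not overlap for any of the 3 genes, and replicate 1 was the highest library of its group at both ages. The log2 fold changes were 4.45 ± 0.56 (SE) for H2-Aa, 4.34 ± 0.60 for H2-Ab1 and 4.16 ± 0.40 for H2-Eb1, with adjusted p of 0.161, 0.205 and 0.0634 in the quasi-likelihood test of edgeR. Without P56 replicate 1 they were 4.17, 3.97 and 3.82, and without P21 replicate 2, the lowest P21 library, 4.08, 3.94 and 3.92. Without P21 replicate 1, the highest P21 library, they were 5.06, 4.79 and 4.49. Over the 16 other settings the adjusted p ran from 4.03e-21 (DESeq2) to 0.714 for H2-Aa, from 1.82e-18 to 0.743 for H2-Ab1 and from 9.96e-30 to 0.764 for H2-Eb1, all with higher levels at P56.

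Cd74, the invariant chain, was at 12406, 8733 and 7173 CPM in the P56 libraries and at 876, 256 and 757 CPM in the P21 libraries. No P56 library came near the P21 range, and the log2 fold change was 3.92 ± 0.50 with an adjusted p of 0.161 in edgeR (2.03e-20 to 0.708 over the other settings). H2-DMb1, the beta chain of the peptide exchange factor, was the most even of the class II genes within groups, at 259, 238 and 220 CPM at P56 and 56.3, 52.7 and 45.7 CPM at P21. Its log2 fold change of 2.23 ± 0.21 had an adjusted p of 0.0634 in edgeR, and 8 of the 10 settings that kept all libraries called it (5.15e-17 to 0.577 over all 16). H2-DMa, the partner chain, was at 352, 361 and 207 CPM at P56 against 40.6, 80.9 and 77.0 CPM at P21, also without overlap, with a log2 fold change of 2.22 ± 0.36 (adjusted p 0.429 in edgeR, 2.63e-06 to 0.999 over the other settings). Ctss, which encodes cathepsin S, was at 6755, 5831 and 5842 CPM at P56 and 4449, 4627 and 4052 CPM at P21, higher without overlap (log2 fold change 0.50 ± 0.13).

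**Figure D1:**
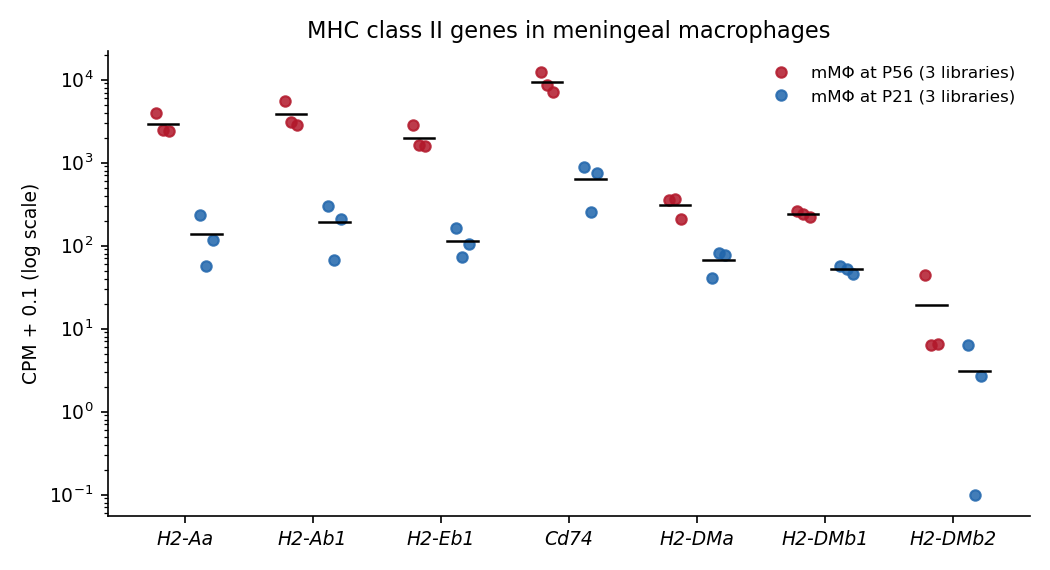
Level of 7 class II genes in each mMΦ library, in CPM plus 0.1 on a log scale, with P56 libraries (red) left of P21 libraries (blue) and lines for group means. For 6 genes from H2-Aa to H2-DMb1 the groups are far apart, while the 3 P56 libraries of H2-DMb2 reach down to 6.29 CPM, just above the highest P21 library at 6.23 CPM.

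The remaining class II genes were low. H2-DMb2, a near copy of H2-DMb1, was at 43.9, 6.29 and 6.48 CPM at P56 and 6.23, 0 and 2.60 CPM at P21, and how the authors' counting split reads between the copies is not known. H2-Ob, a chain of the H2-DM inhibitor H2-O, was at 38.8, 4.35 and 11.9 CPM at P56 against 0, 0 and 7.21 CPM at P21, which overlapped. Ciita was near the limit of detection, at 0, 10.3 and 1.91 CPM at P56 and 0, 0 and 3.27 CPM at P21. H2-Oa and H2-Eb2 had too few counts for the test. H2-Oa was at 0.19, 0.13 and 0.04 CPM at P56 and 2.54, 0.06 and 2.05 CPM at P21, which overlapped. H2-Eb2 had 11 counts in all at P56 and 0 at P21. That is at least 3.95-fold higher against a floor of 3 counts over the group (2.44 to 5.35 with 1 library left out). Of the 11 genes of the list 9 were tested, 9 had a positive log2 fold change, and 7 were higher without overlap of the libraries, where 6.14% of all genes tested were (12.7% were without overlap in either direction). DESeq2 called 6 of them higher, where it called 0.432% of all genes. Their median log2 fold change was 2.94, against 0.00 over all genes tested, and their summed level was 25348, 16580 and 14473 CPM at P56 and 1681, 586 and 1326 CPM at P21. The ratio of the means of these sums was 15.7 with all libraries, 12.97 without P56 replicate 1, 12.51 without P21 replicate 2 and 19.67 without P21 replicate 1.

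MHC class I genes, which show peptides of the cell's own proteins, were higher by less. Of 18 tested, 16 had a positive log2 fold change, 4 were higher without overlap (22.2%, against 6.14% of all genes) and none lower (6.52% of all genes), and the median was 0.39. H2-K1, a classical heavy chain, averaged 1470 CPM at P56 and 1086 CPM at P21. H2-T23, a nonclassical one, averaged 336 CPM at P56 and 209 CPM at P21, and Tap2, a subunit of the peptide transporter, 143 CPM at P56 and 91.8 CPM at P21. B2m, the light chain, averaged 4667 CPM at P56 and 3413 CPM at P21, but its libraries overlapped. DESeq2 called none of the 18. The interferon response list had a median of 0.41, with 25 of 32 tested genes positive, 4 higher without overlap, among them Ifi27l2a, Cmpk2 and Ifi208 (12.5%, against 6.14% of all genes), and 1 lower, Ifi207 (3.12%, against 6.52%). Ifi27l2a, an interferon-induced gene, was at 825, 516 and 376 CPM at P56 and 329, 266 and 355 CPM at P21.

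The other genes that stood highest by p at P56 were not of the antigen presentation pathway. Lyz2 was at 24408, 23938 and 21997 CPM at P56 and 11072, 11755 and 10839 CPM at P21. That is a narrow spread at both ages, and the log2 fold change was 1.08 ± 0.10 with an adjusted p of 0.0634 in edgeR (1.11e-17 to 0.652 over the other settings). Cd81, whose product organises membrane proteins, was at 1024, 1193 and 918 CPM at P56 against 381, 456 and 398 CPM at P21, with an adjusted p of 0.161 in edgeR (5.42e-11 to 0.833). The histone genes without overlap were H1f2, a linker histone, at 266, 235 and 270 CPM at P56 and 90.7, 83.6 and 100 CPM at P21, and H3f3b, the replacement histone H3.3, at 3098, 2843 and 3095 CPM at P56 and 1427, 1773 and 1639 CPM at P21. DESeq2 called all 4 higher.

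A few immune receptor genes, named after their values were seen, were also higher without overlap. Lilra5, a receptor of the leukocyte immunoglobulin-like family, was at 186, 97.3 and 169 CPM at P56 and 27.2, 32.8 and 43.1 CPM at P21. Cd52, a small surface glycoprotein of leukocytes, was at 337, 266 and 170 CPM at P56 and 83.5, 65.9 and 94.7 CPM at P21. The chemokine gene Ccl8 was at 220, 320 and 189 CPM at P56 against 107, 120 and 112 CPM at P21. For these 3 genes, the log2 fold changes were 2.15 ± 0.36, 1.68 ± 0.31 and 1.12 ± 0.25, and DESeq2 called each higher. Hpgd, the enzyme that inactivates prostaglandins, was at 1412, 1258 and 1287 CPM at P56 and 856, 843 and 722 CPM at P21, while Ptgs1, the cyclooxygenase that starts their synthesis, was at 210, 261 and 254 CPM at P56 and 362, 443 and 386 CPM at P21. DESeq2 called Hpgd higher and did not call Ptgs1 (adjusted p 0.0509, and 0.0265 to 1 over the other settings).

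Among the tested markers of monocytes and dendritic cells, Ccr2 and Cd209a were higher without overlap, and the other 6 were not. That is 1 of 2 monocyte genes tested (50%) and 1 of 6 dendritic cell genes (16.7%), against 6.14% of all genes. Ccr2, the chemokine receptor of monocytes, was at 99.1, 141 and 62.0 CPM at P56 and 14.45, 28.3 and 13.3 CPM at P21, with no overlap (log2 fold change 2.44 ± 0.49). Cd209a, a lectin of dendritic cells and some macrophages, was at 1156, 301 and 261 CPM at P56 and 57.9, 29.2 and 29.3 CPM at P21 (3.91 ± 0.69, or 2.86 without P56 replicate 1). The summed monocyte list was at 62.4 to 146 CPM at P56 and 25.1 to 29.2 CPM at P21, and only 2 of its 12 genes were abundant enough to test. The dendritic cell list summed to 434 to 1357 CPM at P56 and 142 to 260 CPM at P21, most of it Cd209a at P56. The ratio of the means of these sums was 3.59, and 2.16 without P56 replicate 1. Of the 6 dendritic cell genes tested 3 had a positive log2 fold change, with a median of 0.05, and Fscn1, Kmo and Zbtb46 had a negative one. Zbtb46, a transcription factor of classical dendritic cells, overlapped, at 42.8, 12.01 and 30.9 CPM at P56 and 13.1, 43.9 and 41.7 CPM at P21. Flt3, the receptor they depend on, was at 0 to 8.39 CPM at P56 and 0.04 to 1.55 CPM at P21. The chemokine receptor Ccr7 had counts in 1 library only, P56 replicate 3, at 33.3 CPM. The library with the highest class II sum, P56 replicate 1, also had the highest dendritic cell sum (1357 CPM). It had the highest Zbtb46 of the P56 libraries (42.8 CPM), 0 CPM of Flt3 and of Ccr7, and the fewest counts of all. The other libraries did not rank alike in the 2 sums. P56 replicate 2 was above replicate 3 in class II (16580 and 14473 CPM) and below it in the dendritic cell sum (434 and 473 CPM). At P21 replicate 1 had the highest class II sum (1681 CPM) and replicate 3 the highest dendritic cell sum (260 CPM). Of the defining markers of monocytes, Ly6c2 reached 0.04 CPM at P56 and 0.08 CPM at P21, and Chil3 was at 0 in all 6 libraries. Plac8 of the monocyte list reached 4.49 CPM at P56 and 0.63 CPM at P21, and Fn1 0.04 and 9.77 CPM. Xcr1, the chemokine receptor of cross-presenting dendritic cells, reached 0.09 CPM at P56 and 2.85 CPM at P21. Of the same list, Clec9a reached 2.22 CPM at P56 and was at 0 at P21, and Klrb1b reached 41.7 and 0.04 CPM. In the B cell list, Ighm was higher without overlap, at 478 to 573 CPM at P56 and 320 to 417 CPM at P21. It was 1 of 3 genes tested (33.3%, against 6.14% of all genes). Cd79b overlapped, at 28.6 to 72.4 CPM at P56 and 61.6 to 122.5 CPM at P21. The B cell gene Ms4a1 and the T cell receptor genes Trac, Trbc1 and Trbc2 were at 0 in all 6. The part of dendritic cells in the class II levels was not tested.

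**Figure D2:**
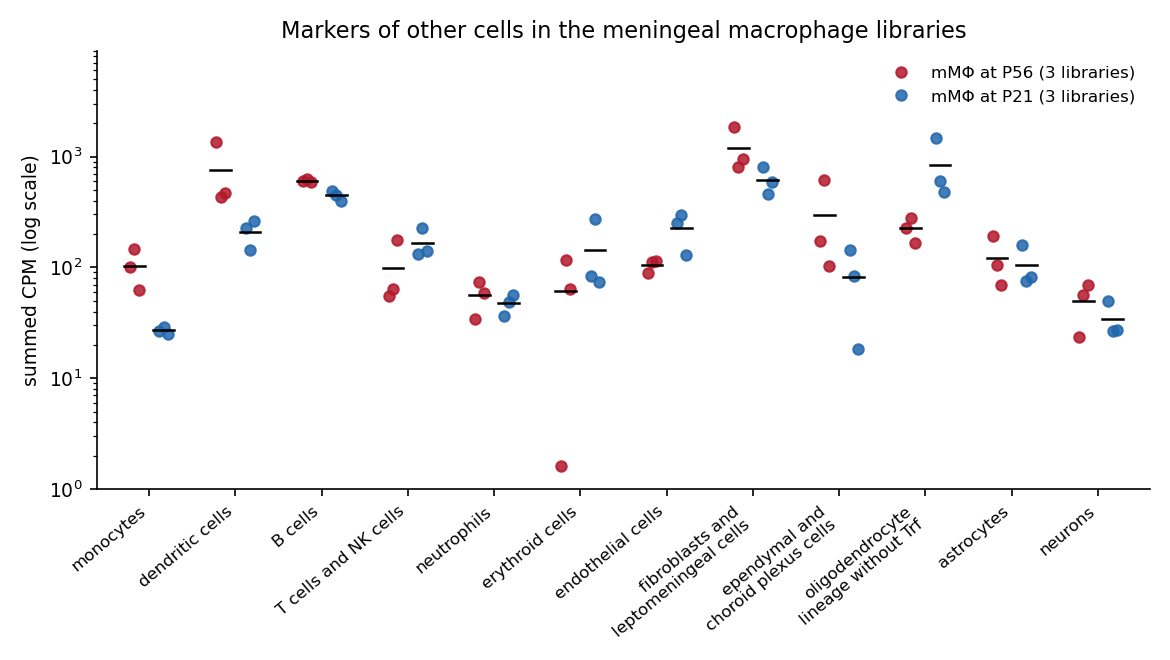
Summed level of marker lists of other cells in each mMΦ library, in CPM on a log scale, with P56 (red) left of P21 (blue) and lines for means. The monocyte and dendritic cell sums, mostly Ccr2 and Cd209a at P56, are higher at P56, and the oligodendrocyte sum without Trf (167 to 279 CPM at P56, 480 to 1464 CPM at P21) is lower.

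The genes by which border macrophages are known had no common direction. The 32 border macrophage genes were all tested, with 16 positive and a median log2 fold change of 0.00. Without overlap, 6 of them were higher (18.8%, against 6.14% of all genes) and 5 lower (15.6%, against 6.52%). Their sum was 30920 to 35353 CPM at P56 and 35548 to 35957 CPM at P21. Lyve1, the hyaluronan receptor of border macrophages, was at 1211, 1413 and 1209 CPM at P56, against 1631, 2082 and 2563 CPM at P21. It was lower without overlap (log2 fold change -0.70 ± 0.19), with an adjusted p of 0.837 in edgeR and 0.0453 in DESeq2 (0.0453 to 1 over the other settings). Mrc1 was at 3087, 2715 and 3061 CPM at P56 and 3267, 4014 and 3623 CPM at P21, a log2 fold change of -0.28 ± 0.14. Folr2, a folate receptor, was higher without overlap, at 336, 332 and 266 CPM at P56 and 215, 206 and 258 CPM at P21. Timd4, a receptor for dying cells, overlapped at 165 to 208 CPM at P56 and 168 to 203 CPM at P21, as did Pf4, Cd163, Maf and Apoe.

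Lectin and scavenger receptors differed among themselves. Of 27 tested, 6 were higher (22.2%, against 6.14% of all genes) and 3 lower (11.1%, against 6.52%) without overlap. Cd36, which takes up oxidised lipoproteins and fatty acids, was at 356, 348 and 497 CPM at P56 and 968, 881 and 733 CPM at P21. It had a log2 fold change of -1.09 ± 0.20 and an adjusted p of 0.655 in edgeR, and DESeq2 called it lower (4.7e-04, the lowest of the other settings, which reached 1). The C-type lectin gene Cd209g was higher without overlap, at 218, 163 and 162 CPM at P56 and 135, 53.8 and 55.4 CPM at P21, and Cd209b averaged 202 CPM at P56 and 96.5 CPM at P21. The Cd209 genes lie in a family of close copies, so their counts may be split between members. Of the 22 genes of lipid transport and efflux tested, 5 were lower without overlap (22.7%, against 6.52% of all genes) and none higher (6.14% of all genes), while 12 had a positive log2 fold change and the median was 0.03. Among the 5 were Plin2, a lipid droplet coat protein, at a mean of 402 CPM at P56 and 730 CPM at P21, and Lpcat3, an enzyme of phospholipid remodelling, at 38.6 CPM at P56 and 88.1 CPM at P21. Apoe, the most abundant of them, was at 79824, 67933 and 75651 CPM at P56 and 65595, 76834 and 63885 CPM at P21, which overlapped.

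Lysosomal genes had no common direction. Of 37 tested, 9 were lower (24.3%, against 6.52% of all genes) and 2 higher without overlap, Ctss and Ctsh (5.41%, against 6.14%), 16 had a positive log2 fold change, and the median log2 fold change was -0.05. Ctsa, a serine carboxypeptidase, was at 1621, 2186 and 1989 CPM at P56 and 2829, 3140 and 2895 CPM at P21. Tpp1, a tripeptidyl peptidase, was at 446, 563 and 491 CPM at P56 against 879, 962 and 673 CPM at P21. Ctsb, the most abundant, averaged 14234 CPM at P56 and 14321 CPM at P21. DESeq2 called 1 of the 37 higher (Ctss) and 1 lower (Ctsa).

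The 10 genes with the smallest p among those lower without overlap fell into no single list. Ralgds, an exchange factor for Ral GTPases, was at 30.9, 25.5 and 24.3 CPM at P56 and 117, 82.1 and 117 CPM at P21 (log2 fold change -1.95 ± 0.32). Jdp2, a repressor of the AP-1 family, was at 12.97, 36.6 and 23.01 CPM at P56 and 126, 128 and 229 CPM at P21 (-2.73 ± 0.47). Ednrb, an endothelin receptor, was at 375, 391 and 487 CPM at P56 and 779, 904 and 694 CPM at P21 (-0.91 ± 0.18). In each of the 3 every P56 library lay below every P21 library. Cebpb, a transcription factor of inflammatory macrophages, was at 558, 670 and 618 CPM at P56 and 897, 1259 and 1170 CPM at P21 (-0.84 ± 0.18). Ppp2r2a, a regulatory subunit of protein phosphatase 2A, was at 59.3, 52.1 and 59.8 CPM at P56 and 136, 150 and 105 CPM at P21 (-1.18 ± 0.26). The adjusted p was 0.429 for Ralgds, 0.538 for Jdp2, 0.725 for Ednrb and 0.79 for Cebpb and Ppp2r2a in edgeR, and DESeq2 called all 5 lower.

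Another 4 genes had almost no counts at P56 and were low at P21 too. Angptl7, a secreted angiopoietin-like protein, had 1 count in the 3 P56 libraries together and 1095 in the P21 libraries, at 9.49, 35.4 and 10.7 CPM at P21. The ratio was 1020 with an exact 95% counting interval of 182 to 40200. It was 617 without P21 replicate 2 (617 to 1280 without any 1 library that left the count in), and a bound of at least 214-fold lower without P56 replicate 3, which held that count. Slc25a15, the ornithine transporter of mitochondria, had 2 counts at P56 and 944 at P21, a ratio of 438 (121 to 3620, or 76.1 to 2280 without P56 replicate 2). Dnajc27 had 0 counts at P56 and 1142 at P21, at 7.31, 41.2 and 10.9 CPM in the P21 libraries. It was at least 353-fold lower against 3 counts over the group, and at least 185-fold without P21 replicate 2, its highest library. Adgrg1, an adhesion receptor also used by microglia, was at 0.12, 0 and 0.22 CPM at P56 and 15.1, 15.7 and 17.5 CPM at P21. Such intervals cover counting error only, and in cDNA made from very little RNA a low transcript can be missed in a library. In pvMΦ, Dnajc27 ranged from 0 to 18.6 CPM among the 4 P56 libraries and from 0 to 14.8 CPM among the 4 P21 libraries. Of the 119 genes called by DESeq2, 28 had 0 to 3 counts in all in 1 of the groups.

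**Figure D3:**
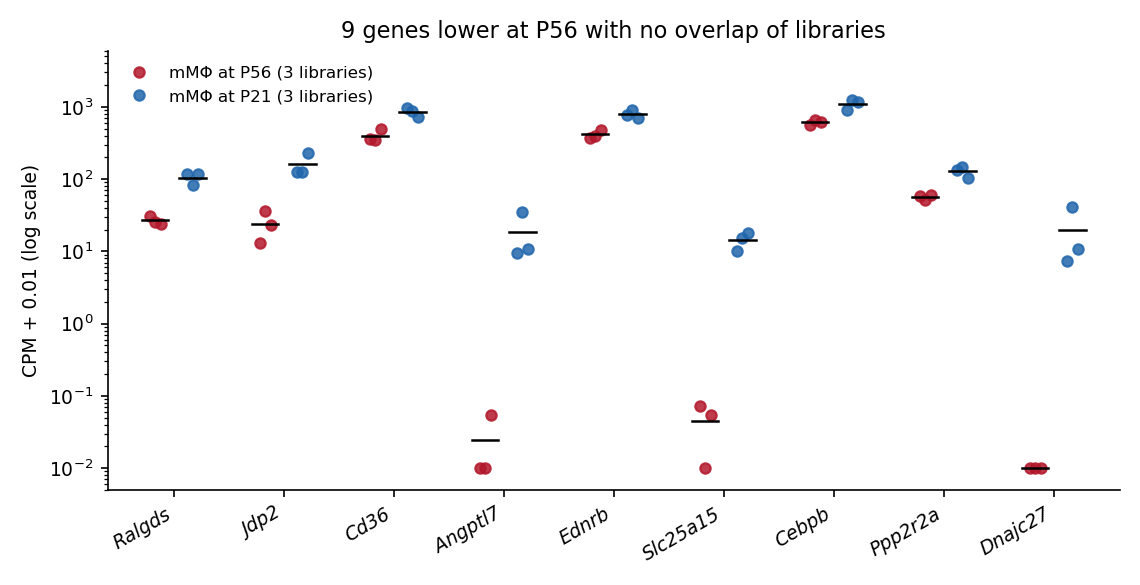
Level of 9 of the genes lower without overlap in each mMΦ library, in CPM plus 0.01 on a log scale, with P56 (red) left of P21 (blue) and lines for means. Angptl7, Slc25a15 and Dnajc27 lie at or near 0 at P56, and the other 6 genes stay measurable in every P56 library.

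Members of the oligodendrocyte list differed in direction. Of the 10 tested, 4 were lower without overlap (40%, against 6.52% of all genes) and none higher (6.14%), and 4 had a positive log2 fold change. Mbp, myelin basic protein, was at 74.1, 93.8 and 54.3 CPM at P56 and 864, 262 and 193 CPM at P21, and Mobp at 8.23, 34.8 and 19.9 CPM at P56 and 280, 144 and 52.3 CPM at P21. The log2 fold changes were -2.55 ± 0.59 for Mbp and -2.91 ± 0.75 for Mobp. P21 replicate 1 was the highest library for both, and without it they were -1.62 for Mbp and -2.22 for Mobp. Mag and Cnp, also genes of myelin, overlapped, with Mag at a mean of 8.69 CPM at P56 and 8.05 CPM at P21 and Cnp at 97.3 CPM at P56 and 112 CPM at P21. The iron carrier gene Trf, which macrophages also express, made up most of that list's sum and overlapped at 5880 to 7701 CPM at P56 and 5748 to 6714 CPM at P21. Of 6 erythroid genes tested, 4 globin genes were lower without overlap (66.7%, against 6.52% of all genes), while Hbb-bs overlapped at 0.25, 1.23 and 2.35 CPM at P56 and 12.2, 102 and 1.76 CPM at P21. The erythroid sums overlapped too, and the ratio of their means was 0.426, or 0.77 without P21 replicate 2. The endothelial list summed to 89.6 to 113 CPM at P56 and 129 to 296 CPM at P21, with 3 of 6 tested genes lower without overlap (50%, against 6.52% of all genes). Of these, Cldn5 averaged only 0.01 CPM at P56 and 3.28 CPM at P21, and Esam 0.02 and 1.07 CPM. Egfl7 averaged 59.9 CPM at P56 and 130 CPM at P21, while Itm2a, Flt1 and Slc2a1 overlapped. The fibroblast and leptomeningeal list was higher, at 809 to 1835 CPM at P56 and 461 to 801 CPM at P21, mostly through Ptgds. Ptgds was the only 1 of its 11 tested genes higher without overlap (9.09%, against 6.14% of all genes). The ratio of the means of the sums was 1.94, or 1.43 without P56 replicate 1. Olig2 and Sox10, transcription factors of living oligodendrocytes, reached 0.08 CPM and 0 CPM in any of the 6 libraries. Whether the myelin transcripts came from other cells, debris or engulfed material was not tested.

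Cell cycle genes were low at both ages. Of 28 tested, 4 had a positive log2 fold change, 7 were lower without overlap (25%, against 6.52% of all genes) and none higher (6.14% of all genes), and the median was -1.15. Their sum was 275 to 464 CPM at P56 and 600 to 714 CPM at P21. Cdk1, the kinase of mitotic entry, was at 16.5, 49.8 and 35.7 CPM at P56 and 66.4, 49.8 and 61.8 CPM at P21. Mcm6, a subunit of the replicative helicase, was at 0.37, 49.6 and 29.5 CPM at P56 and 98.0, 64.1 and 96.0 CPM at P21, and Mki67 was at 0.09 to 1.87 CPM at P56 and 0.12 to 7.17 CPM at P21. None of the 28 was called by edgeR or DESeq2. P56 replicate 1, the library with the fewest counts and genes, had the lowest values of Cdk1 and Mcm6.

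Other programmes had medians nearer to 0. None of the 23 glycolysis genes tested was free of overlap, and their median log2 fold change was 0.15. Immediate early genes, which sorting at warm temperature can induce, had a median of 0.08 and a sum of 50199 to 73721 CPM at P56 and 40522 to 57851 CPM at P21, with Ier2, Zfp36 and Atf3 higher without overlap (8.57% of those tested, against 6.14% of all genes). Microglia genes had a median of -0.22, with 4 of 24 lower (16.7%, against 6.52% of all genes) and 1 higher (4.17%, against 6.14%) without overlap. Csf1r, the receptor for the macrophage growth factor, was at 4439, 5636 and 5566 CPM at P56 and 7373, 7041 and 8696 CPM at P21. Sparc, a matrix protein of microglia, was at 110, 198 and 136 CPM at P56 and 273, 372 and 372 CPM at P21. Extracellular matrix genes had a median of -0.54, with 4 of 20 lower without overlap (20%, against 6.52% of all genes), among them Mmp9, a gelatinase, at a mean of 151 CPM at P56 and 376 CPM at P21.

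**Figure D4:**
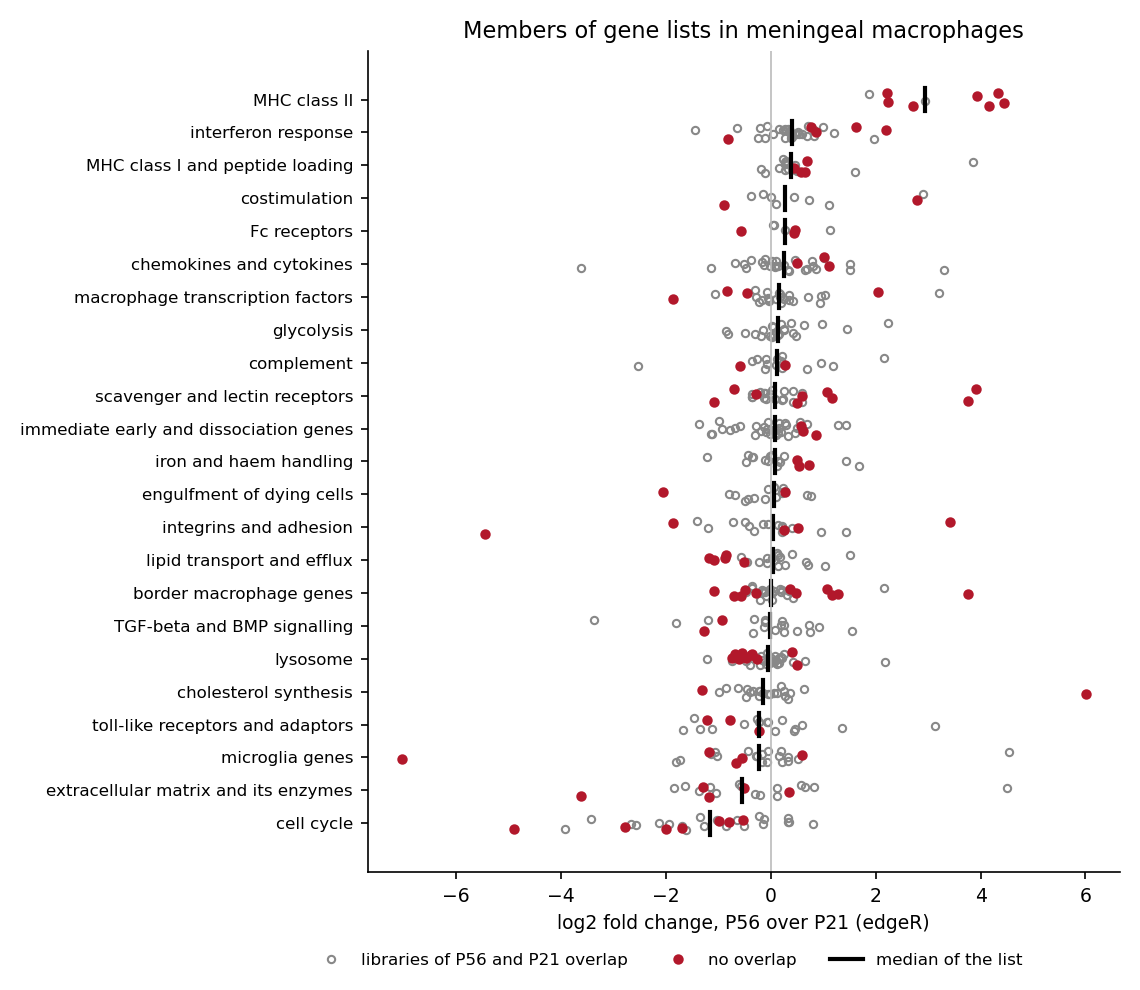
Log2 fold change of P56 over P21 (edgeR) of each tested member of 23 lists, ordered by the list's median (black bar), with filled points where the 3 P56 and 3 P21 libraries do not overlap. The class II list stands at a median of 2.94, and the other lists lie between -1.15 for the cell cycle and 0.41 for the interferon response.

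Set among the younger mMΦ, H2-Aa and Cd74 had their lowest mean at E14.5 and their highest at P56. H2-Aa averaged 0.55 ± 0.27, 1.06 ± 0.12, 58.1 ± 26.5, 136 ± 90.2 and 2932 ± 852 CPM at E14.5, P3, P10, P21 and P56 (SD, n = 3 each). Libraries of P10 and P21 overlapped, and those of P21 and P56 did not. Cd74 averaged 36.9 ± 5.23, 98.4 ± 9.47, 399 ± 125, 630 ± 329 and 9437 ± 2687 CPM at these 5 ages, again with overlap of P10 and P21 only. Lyz2 averaged 1616 ± 151, 2495 ± 572, 5893 ± 444, 11222 ± 476 and 23448 ± 1278 CPM, with no overlap between any neighbouring ages. Cd36 had its highest mean at P10 (1169 ± 169 CPM) and its lowest at P56 (400 ± 83.5 CPM).

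**Figure D5:**
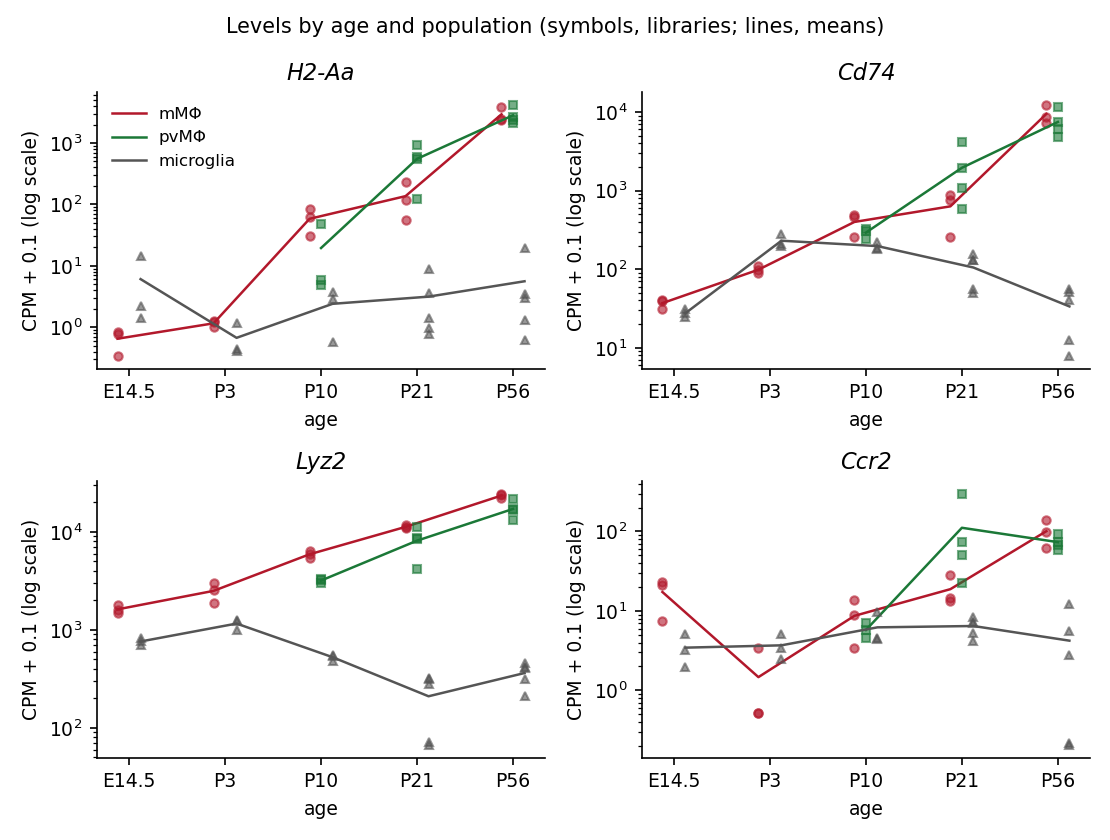
Level of H2-Aa, Cd74, Lyz2 and Ccr2 in each library of mMΦ (red), pvMΦ (green) and microglia (grey) by age, in CPM plus 0.1 on a log scale, with lines through the means. At P56 mMΦ and pvMΦ overlap in H2-Aa, Cd74 and Ccr2 but not in Lyz2, and microglia lie below both.

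In pvMΦ the means of H2-Aa, H2-Ab1, H2-Eb1, Cd74, H2-DMa and H2-DMb1 were also higher at P56, and at P21 they were above those of mMΦ. The low genes H2-DMb2 and H2-Oa had lower means at P56 in pvMΦ, at 7.03 and 7.38 CPM against 14.3 and 18.1 CPM at P21. H2-Aa averaged 2827 ± 955 CPM at P56 and 551 ± 332 CPM at P21 in pvMΦ (SD, n = 4 each), and 5.50 ± 7.96 CPM at P56 and 3.04 ± 3.41 CPM at P21 in microglia (n = 5 each). Cd74 averaged 7460 ± 2934 CPM at P56 and 1949 ± 1589 CPM at P21 in pvMΦ, and 33.5 ± 22.02 CPM at P56 and 105 ± 48.4 CPM at P21 in microglia. Lyz2 averaged 17112 ± 3332 CPM at P56 and 8119 ± 2940 CPM at P21 in pvMΦ, and 362 ± 99.8 CPM at P56 and 210 ± 130 CPM at P21 in microglia. The difference between 2 populations' age differences was tested in 1 fit of edgeR over the 24 libraries of P56 and P21 with a batch term. For Cd74 the mMΦ difference exceeded that of microglia by 5.48 ± 0.95 on the log2 scale, with an adjusted p of 0.0507 over 14871 genes, and that of pvMΦ by 1.94 ± 0.92 (adjusted p 0.68). For H2-Aa the excess was 3.65 ± 1.27 over microglia (adjusted p 0.814) and 2.12 ± 1.28 over pvMΦ (0.834). For Lyz2 it was 0.09 ± 0.34 over microglia and -0.09 ± 0.36 over pvMΦ (adjusted p 1 for both), so these data do not show a class II or lysozyme difference particular to mMΦ against pvMΦ.

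Against microglia, 2 of 14871 genes (0.0134%) were called, both lower in mMΦ, and 873 (5.87%) had an unadjusted p under 0.05. Against pvMΦ the same 2 genes were called (0.0134%), with 1085 (7.3%) at an unadjusted p under 0.05, but neither was called in a fit of mMΦ and pvMΦ alone (adjusted p 0.137 for Adgrg1 and 0.359 for Angptl7). Adgrg1 averaged 0.12 ± 0.11 CPM at P56 and 16.1 ± 1.28 CPM at P21 in mMΦ (n = 3 each). It averaged 117 ± 97.6 CPM at P56 and 72.1 ± 51.0 CPM at P21 in pvMΦ, and 874 ± 535 CPM at P56 and 1030 ± 221 CPM at P21 in microglia. The fitted difference was -6.54 ± 0.70 against microglia (adjusted p 9.8e-05) and -7.68 ± 0.73 against pvMΦ (1.2e-05), and in batch S232 alone -6.14 and -7.62. Angptl7 averaged 26.2 ± 6.75 CPM at P56 and 34.5 ± 24.1 CPM at P21 in pvMΦ, and 31.8 ± 12 CPM at P56 and 20.0 ± 16.4 CPM at P21 in microglia, where mMΦ of P56 had 1 count in all. Its fitted difference was -10.49 ± 1.37 against microglia (0.0012) and -9.32 ± 1.37 against pvMΦ (0.0068), and in batch S232 alone -9.96 (adjusted p 0.0252) and -9.21 (0.0922). These fitted values rest on 0 to 5 counts per P56 library and are no bounds.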

How the data were processed

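Bulk RNA of sorted meningeal macrophages was measured in 6 libraries, 3 of P56 and 3 of P21 mice, grouped by title and age label. Per the labels' protocols, full-length unstranded cDNA was made from sorted cells and sequenced as single reads. The deposited table holds raw counts, whole numbers per gene symbol that the authors summed from aligned reads; per the submitters' processing notes the tools were bcl2fastq 2.18, STAR 2.7.8a and featureCounts 2.0.2. Which genome build, annotation and strand option they used is not given in the sources used here, so the counts of overlapping genes and of near copies are uncertain.

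The table holds 53546 gene symbols, of which 24707 had a count in these libraries and 11325 passed filterByExpr (minimum count 10, minimum total 15). The 6 libraries were fitted in edgeR 4.0.16 under R 4.3.3 (TMM scaling, robust quasi-likelihood F test), and a gene was called when its Benjamini-Hochberg adjusted p was below 0.05. SE is the log2 fold change divided by the square root of F. Differences between populations were tested as interactions on the 24 libraries of P56 and P21 with a term for sequencing batch. CPM levels use totals scaled by TMM over all 45 libraries. DESeq2 1.42.0, limma 3.58.1, other scalings and filters, larger fits, the replicate number as a block and leaving out each library were tried. A filter at a mean of 5 CPM and the likelihood ratio test of edgeR came later, chosen after seeing the data. The edgeR, DESeq2 and limma fits of the 6 libraries were first tested on simulated data. The larger fits and the interactions between populations were not.

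Since no gene was called, the 10 genes per direction with the smallest p among those without overlap and averaging 5 CPM or more at P56 or P21 are named, next to 20 genes followed throughout, list members and genes named after their values were seen; some genes that this rule or the lists hold are not reported here. Unnamed gene models, mitochondrial, ribosomal protein and sex-linked genes were left out of naming. The members of the comparison and its 37 lists (23 of programmes and 14 of cell types) were chosen with earlier results of these data known, and lists were counted, not tested. With 3 against 3 libraries an exact permutation test cannot go below p = 0.1. Same-numbered libraries of P56 and P21 did not deviate together (r = 0.00185, -0.0321 and 0.0187 over 9208 genes), so numbers were not taken as pairs. Promoter sequences are those of RefSeq on GRCm38.p6.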

Additional observations from a re-analysis of the deposited data

Results flagged for a closer look

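For 9 genes of the report, the microglia and pvMΦ groups of P56 and P21 (4 or 5 libraries each) were examined, 36 sets of 1 gene in 1 group. In 4 sets 1 library lay far from the others. Chance marks about 1 set in 20 if values are normal and independent. CPM were not put on a log scale and genes of 1 pathway are not independent, so that rate is only a guide. H2-Aa was at 19.6 CPM in microglia P56 replicate 3, and H2-Ab1 at 62.2 CPM in microglia P56 replicate 2. H2-Eb1 was at 2940 CPM in pvMΦ P56 replicate 2, and Angptl7 at 52.8 CPM in microglia P56 replicate 1. These libraries enter the comparisons between populations and not the comparison of mMΦ at P56 and P21. The groups of 3 mMΦ libraries are too small for this check.

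Age differences that differed between populations by the interaction test of edgeR were those of Adgrg1 and Angptl7. The mMΦ difference of Adgrg1 minus that of microglia was -6.54 on the log2 scale, and minus that of pvMΦ it was -7.68. The mMΦ difference of Angptl7 minus that of microglia was -10.49, and minus that of pvMΦ it was -9.32. Against pvMΦ neither was called with both populations alone (adjusted p 0.137 for Adgrg1 and 0.359 for Angptl7). The mMΦ libraries of P56 held next to no counts of either gene, and both were low in mMΦ of P21.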

How the results depend on the processing

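For P56 against P21 in mMΦ, the quasi-likelihood test of edgeR called 0 genes with its own scaling, with DESeq2 size factors, with the replicate number as a block and without any 1 of the 6 libraries (range 0 to 0). It called 9 with no low-count filter, 3 at a mean of at least 5 CPM (added later), 4 over 24 libraries, 17 over 45 and 154 over 15. Limma called 6, the likelihood ratio test (added later) 71 and DESeq2 119. Called members of the 23 programme lists, cell type lists left out, numbered 0 in the 6-library test and 0 to 0 without each library. They were 3 of the 9 genes called with no filter and 2 of 3 at the CPM minimum. Over 24 libraries they were 3 of 4, over 45 they were 7 of 17 and over 15 they were 20 of 154. With limma they were 5 of 6, with the likelihood ratio test 11 of 71 and with DESeq2 19 of 119. These are parts of the genes called and not shares of the list members tested.

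For the difference from microglia, 2 genes were called, also with the replicate block, but 6 over 45 libraries, 10 in batch S232, 5 with both populations alone, 229 with DESeq2, and 2 to 5 when a library was left out (5 without mMΦ P56 replicate 3). For the difference from pvMΦ, 2 were called, also with the block, but 12 over 45 libraries, 0 with both populations alone, 297 with DESeq2, and 1 to 9 when a library was left out (1 without mMΦ P56 replicate 1 or 2, where Angptl7 was lost, and 9 without pvMΦ P56 replicate 4). With both populations alone, the adjusted p against pvMΦ was 0.137 for Adgrg1 and 0.359 for Angptl7. The causes were not tested. Pairing by number was not given by the design.

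Without single libraries some uncalled log2 fold changes turned: Pf4 ran from -0.053 to 0.48, Timd4 from -0.048 to 0.15, Ciita from -0.18 to 9.40, Mki67 from -1.83 to 0.30, Trf from -0.033 to 0.18, Zbtb46 from -0.62 to 0.18 and Flt3 from -0.56 to 2.28. Of 71 genes recomputed under every setting, the other 64 kept their direction. Libraries of 1 age differed by more than counting error in every pair, and the sources of that scatter were not separated. For genes with 0 to 3 counts in a group, depth limits the fold that can be bounded. Library totals overlapped between the ages. Thinned to the smallest library, each P56 library had fewer genes with a count (14188 to 15320) than each P21 library (15353 to 17587). The part of this in the genes near 0 at P56 was not tested.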

Other observations

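Some genes outside the report's lists of programmes were low at P56 without overlap. Upk1b, a uroplakin tetraspanin, had 0 counts in the P56 libraries and 588 in the P21 libraries, at least 182-fold lower against 3 counts over the group (114 to 218 with 1 library left out). Siglecf, a sialic acid receptor best known from eosinophils and alveolar macrophages, had 0 counts at P56 and 848 at P21, at 13.6, 27.3 and 1.80 CPM in the P21 libraries, and was at least 262-fold lower, or 160-fold without P21 replicate 2. Both genes were higher in microglia of P21, with Upk1b at 161 to 228 CPM and Siglecf at 63.7 to 91.4 CPM. In microglia of P56 they were at 167 to 230 CPM and 0 to 56.5 CPM. Gclc, the catalytic subunit of the enzyme that starts glutathione synthesis, was at 3.56, 7.87 and 4.17 CPM at P56 and 39.2, 36.4 and 41.3 CPM at P21. Tsc22d3, a gene induced by glucocorticoids, was at 965, 815 and 1042 CPM at P56 and 2312, 2885 and 1280 CPM at P21. These genes were chosen after their values were seen. The quasi-likelihood test of edgeR gave each an adjusted p of 0.79, while DESeq2 called all 4 lower.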
